A study of Mus musculus with 17 samples.

Results

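The libraries described here are the 6 dissections of the medial prefrontal cortex (mPFC) taken after oDASS, out of 17 mouse libraries in the series. They were chosen by their labels alone: 3 libraries come from mice classed as perseverers, which the series' design calls addicted, and 3 from mice classed as renouncers, called non-addicted. All 6 libraries are bulk RNA from dissected tissue of the DAT-cre line, in which Cre recombinase is expressed in dopamine neurons, and all 6 were collected after the same protocol, so that no library of untreated mPFC stands beside them. In oDASS a mouse works for optical self-stimulation of dopamine neurons, and perseverers are the animals that keep working when the stimulation comes with punishment, whereas renouncers give it up. The series also holds 6 dissections of the orbitofrontal cortex (OFC) after oDASS, set beside the mPFC values below, and 5 OFC imprints from before it, which are not used here. Nothing in the labels ties a library to an animal or states that replicates are different mice, so p-values measure the spread between these samples.

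The mPFC guides goal-directed behaviour and receives dopamine input from the ventral tegmental area. Most of its neurons are glutamatergic pyramidal cells, and their activity is shaped by GABAergic interneurons that also release neuropeptides: somatostatin cells contact distal dendrites, and cells that express vasoactive intestinal peptide mostly inhibit other interneurons. Changes in excitatory synapses and in interneuron function of prefrontal areas are widely studied in addiction.

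The question was which genes differ between perseverers and renouncers in this area. Of 25239 genes in the count table, 14375 had enough counts to be tested. No gene passed an adjusted p of 0.05 (0 called, 0% of those tested) with edgeR's quasi-likelihood test, and the smallest adjusted p was 0.943. At an unadjusted p under 0.05 there were 639 genes, of which 443 lay higher in perseverers (3.08%) and 196 lower (1.36%). DESeq2 also called 0 genes at that threshold (767 at an unadjusted p under 0.05) and 1 at an adjusted p under 0.1, and limma called 0 (2151 unadjusted). Every perseverer library lay above every renouncer library in 817 genes (5.68%) and below in 751 (5.22%). These shares are the background for the gene groups below. The members of those groups were chosen with earlier results of these data known. Their shares therefore only describe the lists and are not independent support. The gene with the smallest p, 9530059O14Rik, has no ordinary name and is named only because it was the 1 gene at that DESeq2 threshold. It stood at 0, 0.0722 and 0 CPM in perseverers and 1.88, 1.03 and 3.93 in renouncers. All gene values that follow are descriptions of 3 against 3 libraries. They are given as CPM (counts scaled to a common library size), in the order of replicates 1, 2 and 3, and as log2 fold changes ± SE, positive where perseverers are higher.

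The total count per library was between 12392731 and 17895184. Marker genes of cell types were looked up, although passing a low-count filter cannot establish cortical identity. All 12 markers of excitatory neurons, all 20 of interneurons and all 14 of astrocytes were retained by the filter. So were 13 of 16 striatal markers, without Drd2, Six3 and Isl1, and 13 of 16 markers of neuroblasts and olfactory bulb. Only 5 of 12 markers of choroid plexus and ependyma and 3 of 18 of blood immune cells were retained. Xist was at 0 counts in all 6 libraries, and the Y-linked genes Ddx3y, Uty, Kdm5d and Eif2s3y were detected in all 6. Perseverer replicate 3 and renouncer replicate 3 stood apart from the other 4 libraries on the first 2 principal components, which held 31.2% and 25.02% of the variance. Some values are also given from fits that leave out 1 library.

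Gene length moved with the groups. The Spearman correlation between a gene's level in a library, relative to the mean of the 6, and its length, taken across 8422 genes, which are not independent replicates, reached 0.327, 0.355 and -0.037 for the perseverers. For the renouncers it was -0.079, -0.168 and -0.380. Every perseverer thus lay above every renouncer, and the difference in means was 0.424 (exact permutation p = 0.1, two-sided, the smallest that 20 splits allow, adjusted p = 0.2 over 4 library measures). With the tested genes cut by length into 5 bins of nearly equal size, from shortest to longest, the median log2 fold change went from -0.14 through -0.05, 0.02 and 0.08 to 0.15. Of the 443 genes on the higher side, 240 were in the bin of the longest genes and 8 in that of the shortest. With the trend removed from each library, 268 genes lay higher and 278 lower at an unadjusted p under 0.05, so the excess on the higher side was no longer present. It was also absent, with the trend kept, when perseverer replicate 3 was left out (855 higher and 994 lower). Genes detected after thinning all libraries to 1 depth numbered 16124 to 16171 in perseverers and 16220 to 16514 in renouncers, which also did not overlap (exact permutation p = 0.1, adjusted p = 0.2). The part of length in any single gene's difference was not tested.

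**Figure D1:**
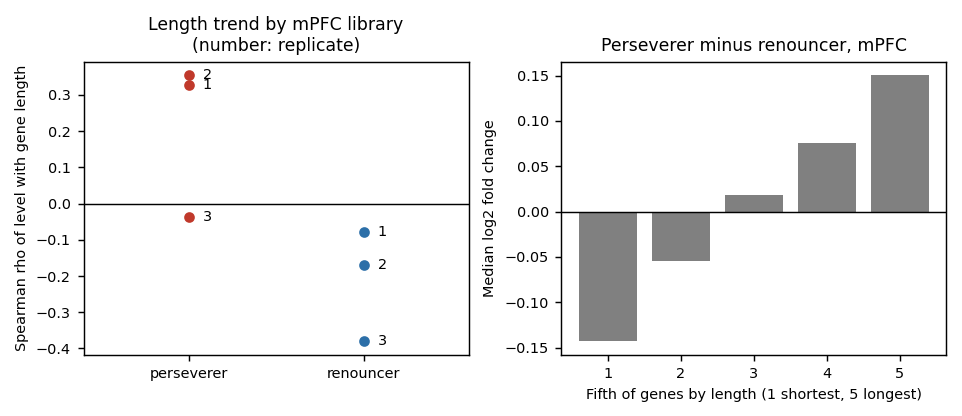
Left, the Spearman correlation of level with gene length in each mPFC library (points, numbered by replicate); right, the median log2 fold change (perseverer minus renouncer) in each of 5 nearly equal bins of the tested genes by length. All 3 perseverer libraries lie above the 3 renouncer libraries, and the bars go from -0.14 for the shortest genes to 0.15 for the longest.

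Among genes on the higher side, the smallest p belonged to Gcn1, which codes for the ribosome-bound activator of the kinase GCN2 in the amino acid starvation response (chromosome 5, 115565117 to 115622654, GRCm38). It stood at 44.7, 49.0 and 47.5 CPM in perseverers and at 25.4, 28.1 and 16.5 CPM in renouncers. The 3 perseverers were close together and every one lay far above the highest renouncer, for a log2 fold change of 1.01 ± 0.22 (0.81 to 1.16 with 1 library left out). Nos1, the neuronal nitric oxide synthase that marks a set of cortical interneurons (chromosome 5, 117866839 to 117958840), stood at 29.3, 34.6 and 37.7 CPM in perseverers against 17.7, 21.1 and 16.6 in renouncers. Its groups were separate as well, at 0.88 ± 0.20. Egfr, the receptor for epidermal growth factor, stood at 18.6, 17.9 and 23.9 CPM against 12.1, 10.4 and 9.36, at 0.92 ± 0.24, with no overlap.

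Fat1, a giant protocadherin of cell contacts, had the highest fold change of these 10 genes and also the highest SE. It stood at 7.46, 10.98 and 22.5 CPM in perseverers, against 4.43, 4.45 and 2.67 in renouncers, at 1.82 ± 0.43. Perseverer replicate 3 was the highest by far, and the fold change was 1.26 without it. Tmem94, a membrane protein gene, stood at 55.9, 64.9 and 76.6 CPM against 41.3, 38.1 and 37.0 (0.76 ± 0.18). Rrp12, a gene of ribosome assembly, stood at 38.1, 46.1 and 32.5 CPM against 23.4, 20.6 and 21.2 (0.84 ± 0.20). Completing the 10 higher genes with the smallest p, Tmem164 was at 0.68 ± 0.17, Prr14l at 0.81 ± 0.20, Trim66, a chromatin reader of the TRIM family, at 1.22 ± 0.31, and Ranbp17, a nuclear transport receptor, at 1.53 ± 0.39. None of the 10 had overlapping groups, which their small p makes likely, and all 10 were longer than the median tested gene (median length 7782 bases against 3131). Each kept its direction with the length trend removed, where Gcn1 was at 0.82 and Nos1 at 0.67.

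On the lower side the smallest p of a gene with an ordinary name belonged to F3, which codes for tissue factor, the starter of blood clotting that brain astrocytes also express. It stood at 62.4, 57.2 and 64.5 CPM in perseverers and 95.2, 88.9 and 107 in renouncers, at -0.66 ± 0.16, with tight values in each group and none shared. Uba3, a subunit of the enzyme that activates NEDD8, stood at 77.4, 72.3 and 73.2 CPM against 111.6, 99.0 and 109, again without overlap, at -0.52 ± 0.15. Kat8, a histone H4 acetyltransferase, stood at 21.5, 18.9 and 17.0 CPM against 31.2, 28.1 and 32.6, at -0.68 ± 0.20. Gadd45g, an activity-induced gene of DNA repair and demethylation, stood at 12.6, 13.0 and 17.4 CPM against 27.0, 31.0 and 18.7, at -0.83 ± 0.25, and here the lowest renouncer was close to the highest perseverer.

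The other lower genes were Sst, described with the peptides, Stk32a, a kinase gene (-1.83 ± 0.49), Wsb1, a subunit of a ubiquitin ligase (-0.88 ± 0.26), Hars2, the mitochondrial histidyl-tRNA synthetase (-0.96 ± 0.28), Rasl12, a small GTPase gene (-1.74 ± 0.52), and Haus5, a part of the augmin complex (-1.64 ± 0.49). Stk32a, Haus5 and Rasl12 were all low, with no library above 7.65 CPM. Haus5 shares 56.5% of its exon bases with an overlapping gene, which makes its value uncertain. As on the higher side, none of the 10 had overlapping groups, which their small p makes likely. Leaving out 1 library can hardly change the sign of such genes, and each kept its direction in every such fit. Each also kept it with the length trend removed.

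**Figure D2:**
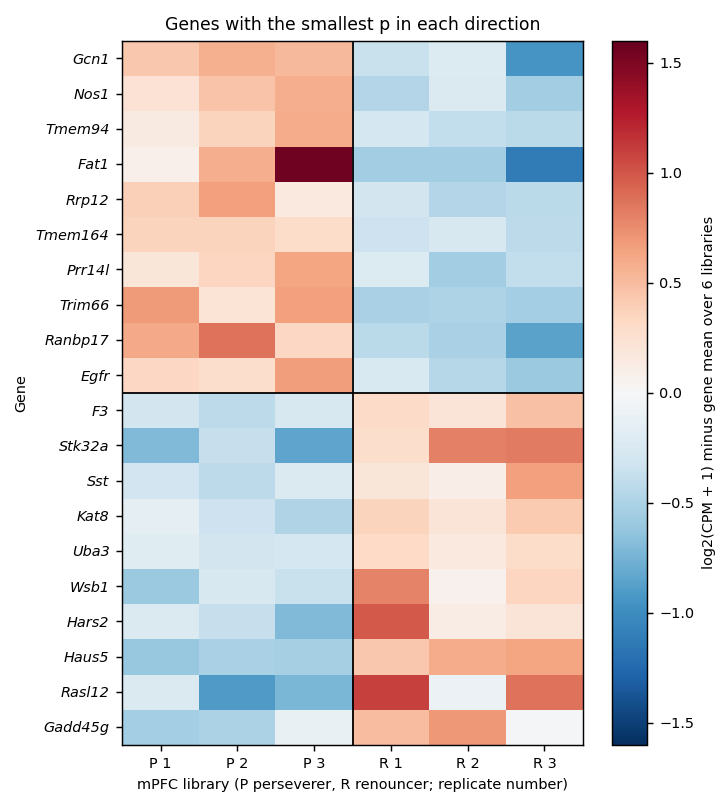
Heat map of the 10 genes with the smallest p on each side (rows) in the 6 mPFC libraries (columns, P perseverer and R renouncer with the replicate number); colour is log2(CPM + 1) minus the gene's mean over the 6 libraries. The 3 perseverer columns are above the 3 renouncer columns in every one of the upper 10 rows and below them in the lower 10, and the strongest single value is Fat1 in perseverer replicate 3.

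Neuropeptide genes lay mostly lower in perseverers. Of the 31 listed genes for neuropeptides and their receptors 29 were tested, 24 of them with a negative fold change and 5 with a positive one, and the median was -0.17 against 0.00 over all genes. None passed the threshold. The 5 members whose groups did not overlap (17.2%, against 5.22% of all genes) were all lower in perseverers: Sst, Cort, Crhbp, Vip and Crh. Promoter sequences of the 4 with the smallest p are shown first, because Sst and Vip are textbook targets of the cyclic AMP response element, whose letters are in capitals. Each is the 250 bases before the annotated start, from RefSeq (GRCm38.p6).
Sst, chr16:23890845-23891094, minus strand: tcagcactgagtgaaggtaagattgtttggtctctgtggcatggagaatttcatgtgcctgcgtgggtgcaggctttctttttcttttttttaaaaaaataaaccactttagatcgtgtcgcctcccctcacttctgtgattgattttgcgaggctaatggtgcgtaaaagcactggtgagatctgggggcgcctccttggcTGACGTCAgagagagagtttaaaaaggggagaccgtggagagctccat
Vip, chr10:5638968-5639217, plus strand: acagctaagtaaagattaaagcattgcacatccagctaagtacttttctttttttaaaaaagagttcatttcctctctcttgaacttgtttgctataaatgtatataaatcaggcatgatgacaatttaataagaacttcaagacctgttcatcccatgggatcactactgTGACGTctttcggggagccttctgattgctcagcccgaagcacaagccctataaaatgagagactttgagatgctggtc
Crhbp, chr13:95444832-95445081, minus strand: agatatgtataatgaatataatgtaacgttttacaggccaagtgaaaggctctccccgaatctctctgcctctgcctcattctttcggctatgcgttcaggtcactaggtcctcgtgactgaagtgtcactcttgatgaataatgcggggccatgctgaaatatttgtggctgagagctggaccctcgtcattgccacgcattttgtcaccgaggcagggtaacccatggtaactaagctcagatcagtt
Cort, chr4:149126764-149127013, minus strand: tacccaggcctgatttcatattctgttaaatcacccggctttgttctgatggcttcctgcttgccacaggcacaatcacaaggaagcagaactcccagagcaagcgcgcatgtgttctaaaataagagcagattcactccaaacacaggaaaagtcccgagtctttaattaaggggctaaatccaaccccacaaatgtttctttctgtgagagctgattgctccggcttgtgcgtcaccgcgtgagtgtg
The search was for TGACGT, the 6-letter core, on both strands, and for TGACGTCA, the full palindrome that contains it. The Sst window held the full element, whose first base is 48 bases before the start, and the Vip window held the core, 79 bases before the start. Neither was in the windows of Crhbp or Cort. Of all 32851 promoter windows given, 2125 (6.47%) held the core and 508 (1.55%) the full element. Among the 22 listed peptide and receptor genes with a window these counts were 5 (Adcyap1, Sst, Sstr2, Sstr3 and Vip) and 2 (Sst and Sstr2). Here a gene counted if any of its windows held the letters, so counts of genes and of windows are unlike units. Adcyap1, Sstr2 and Sstr3 were not among the members without overlap. A link between the element and the fold changes was not tested.

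Sst codes for somatostatin, the peptide that names the dendrite-targeting interneurons. It was expressed at 319, 295 and 338 CPM in the perseverer libraries and at 451, 426 and 625 CPM in the renouncers. All 3 perseverers lay below the lowest renouncer, and renouncer replicate 3 was the highest of the 6. The log2 fold change was -0.66 ± 0.19, -0.76 to -0.47 with 1 library left out and -0.38 with the length trend removed. In bulk tissue fewer cells of a type and less RNA per cell cannot be told apart, which holds for Sst and for every cell marker below. Cort, which codes for cortistatin, a relative of somatostatin made in a subset of interneurons, stood at 14.3, 9.10 and 13.7 CPM in perseverers and 21.2, 15.6 and 22.6 in renouncers (-0.68 ± 0.26). Its groups were separate with a narrow gap.

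Crhbp codes for the protein that binds and sequesters corticotropin-releasing hormone, and in cortex it is found mainly in somatostatin cells. It stood at 42.9, 34.3 and 43.5 CPM in perseverers and 66.8, 44.5 and 72.5 in renouncers, at -0.61 ± 0.22, with renouncer replicate 2 only just above the perseverers. Crh, the hormone itself, made by cortical interneurons that largely express vasoactive intestinal peptide, stood at 8.41, 10.8 and 10.3 CPM against 12.9, 12.4 and 16.4, at -0.50 ± 0.26. Vip stood at 103.9, 117 and 123 CPM in perseverers and 171, 165 and 123 in renouncers, at -0.42 ± 0.18. Here renouncer replicate 3 and perseverer replicate 3 were at nearly the same level, so the groups are barely separate. For ligand and binding protein of the corticotropin-releasing hormone system alike, each renouncer library lay above each perseverer library.

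Other abundant peptides had overlapping groups. Npy, neuropeptide Y, stood at 163, 155 and 139.6 CPM against 176, 143 and 250.3 (-0.31 ± 0.21). Tac1, the precursor of substance P, was at -0.59 ± 0.31, Penk, the enkephalin precursor, at -0.31 ± 0.25, and Cck, cholecystokinin, the most abundant of the list in counts, at -0.12 ± 0.18. The highest fold change of the list belonged to a receptor, Oprd1 of the delta opioid type, at 16.5, 19.5 and 11.3 CPM against 12.6, 10.6 and 8.73 (0.56 ± 0.28), also with overlap. The somatostatin receptors Sstr1 and Sstr2 were at -0.07 ± 0.23 and -0.03 ± 0.22. With the length trend removed the list's median was -0.17, with 20 members negative and 9 positive. Without that correction it was -0.32 without perseverer replicate 2 and -0.07 without perseverer replicate 3. In the OFC dissections 12 of 28 members were positive, with a median of -0.03.

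**Figure D3:**
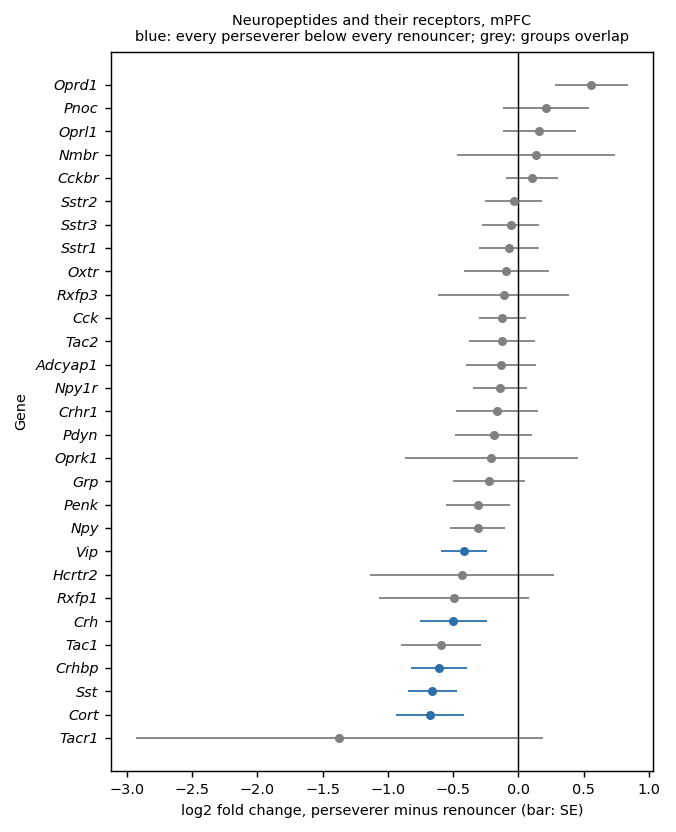
Log2 fold change (perseverer minus renouncer, bar: SE) of the 29 tested genes for neuropeptides and their receptors in the mPFC. The 5 genes whose groups do not overlap (blue) all lie below 0, and 24 of the 29 points do.

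The general interneuron markers had overlapping groups. Gad1, the main enzyme of GABA synthesis, stood at 203, 225 and 93.7 CPM in perseverers and 162, 153 and 185 in renouncers. Perseverer replicates 1 and 2 were the highest of the 6 libraries and perseverer replicate 3 the lowest, so the groups overlapped fully, at 0.06 ± 0.28. Gad2 was at 0.07 ± 0.23, Slc32a1, the vesicular GABA transporter, at -0.19 ± 0.26, and Lhx6, a transcription factor of somatostatin and parvalbumin cells, at 0.11 ± 0.25. Pvalb, parvalbumin, stood at 64.4, 34.3 and 64.0 CPM against 50.9, 41.1 and 153, at -0.59 ± 0.44, with its highest value in renouncer replicate 3 and fold changes from -0.90 to 0.23 with 1 library left out. Chodl, a marker of long-range Sst and Nos1 neurons, was near the detection limit at 1.02, 0 and 0.900 CPM against 2.12, 1.59 and 3.93, with no overlap. It lay on the other side from Nos1. Of the 20 interneuron markers 15 were negative, with a median of -0.12. In 4 of the 20, against 5.22% of all genes, every perseverer lay below every renouncer: Sst, Cort, Vip and Chodl. Of these, Sst, Cort and Vip were already counted in the neuropeptide list, so they are not separate support. Without perseverer replicate 2 the median of the 20 interneuron markers was -0.34, and with the length trend removed it was -0.13 with 13 negative.

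Genes of the presynaptic side mostly lay higher in perseverers. In the list for synaptic vesicle release 30 of 36 members were positive, with a median of 0.24. The mean log2 level of the list was 7.10, 7.12 and 7.10 in the perseverer libraries, above the 6.96, 6.90 and 6.90 of the renouncers. At an unadjusted p under 0.05 there were 6 members on the higher side (16.7%, against 3.08% of all genes), and in 6 the groups did not overlap (16.7%, against 5.68%). Syn1, which codes for synapsin, the phosphoprotein that tethers vesicles, stood at 720.0, 820.1 and 610.1 CPM in perseverers and 509, 513 and 481 in renouncers. The renouncers were tightly grouped, the perseverers spread widely above them, and the fold change was 0.52 ± 0.17. Slc17a7, the vesicular glutamate transporter of cortical pyramidal cells, stood at 1808, 1769.5 and 1658 CPM against 1316, 1470.1 and 1227, at 0.38 ± 0.16, with a clear gap.

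Members of the active zone lay on both sides: Erc2 was at -0.08 ± 0.15, Unc13b at -0.04 ± 0.41 and Unc13c at -0.10 ± 0.30, each with overlap, while 3 others lay higher without overlap. Erc1, a scaffold of the active zone, stood at 61.6, 45.2 and 56.3 CPM against 42.3, 36.9 and 33.0 (0.54 ± 0.19), and shares 11.8% of its exon bases with an overlapping gene. Unc13a, which primes vesicles for fusion, stood at 90.1, 111.4 and 93.5 CPM against 86.7, 64.7 and 71.3 (0.41 ± 0.18). Bsn, the giant scaffold bassoon, stood at 108.4, 92.2 and 168 CPM against 87.2, 65.9 and 90.3 (0.60 ± 0.24, and 0.31 without perseverer replicate 3), with the highest value in perseverer replicate 3 and only a small gap between perseverer replicate 2 and the nearest renouncer. Vamp2, the vesicle SNARE, also had separate groups, at 0.31 ± 0.16. With the length trend removed, the list's median was 0.12 with 25 of 36 members positive, and without perseverer replicate 2 it was 0.11. Its median length was 5477 bases, above the 3131 of all tested genes.

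On the postsynaptic side, metabotropic glutamate receptors and scaffolds had 21 of 29 members positive and a median of 0.28 (0.16 with the length trend removed, 0.16 without perseverer replicate 2). Shank2, a master scaffold of the postsynaptic density, stood at 93.9, 96.8 and 169 CPM in perseverers and 91.3, 79.0 and 67.5 in renouncers, at 0.60 ± 0.24 (0.27 without perseverer replicate 3). Perseverer replicates 1 and 2 were only slightly above the highest renouncer, and replicate 3 was far above. Dlgap4, which links Shank proteins to PSD-95, had the same shape at 191, 177 and 296 CPM against 171, 150.2 and 146 (0.51 ± 0.21, and 0.25 without that library). Homer2, a scaffold that binds metabotropic receptors, was at 0.49 ± 0.22 with overlap (0.22 without it).

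Among 25 genes of spines and actin, 21 were positive with a median of 0.21 (0.14 with the length trend removed, 0.12 without renouncer replicate 3 and 0.32 without renouncer replicate 2). Cyfip2, a subunit of the WAVE complex that drives branched actin, was the clearest of them. It stood at 1001, 1101 and 1084 CPM in perseverers against 803, 816 and 652 in renouncers, at 0.49 ± 0.17, with the groups well apart. Kalrn, an exchange factor of dendritic spines, stood at 89.1, 87.9 and 158 CPM against 85.9, 79.9 and 65.4, where perseverer replicate 3 carried most of the difference (0.53 ± 0.24, and 0.21 without it). Cdc42, the GTPase that triggers filopodia, was in contrast lower in every perseverer, by a small margin (-0.15 ± 0.15).

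The AMPA, NMDA and kainate receptor list had 18 of 26 members positive and a median of 0.10, which was 0.04 without perseverer replicate 2. With the length trend removed, 14 of the 26 were negative and the median was -0.03. Grin2d, an NMDA receptor subunit prominent in interneurons, was its 1 member without overlap (3.85%, against 5.68% of all genes), at 18.6, 15.6 and 17.1 CPM against 12.6, 13.7 and 8.02 (0.58 ± 0.26). The GABA receptor and inhibitory synapse list had 11 of 20 positive and a median of 0.02, against 6 of 20 and -0.09 with the length trend removed. Voltage-gated sodium and calcium channels had 19 of 24 members positive and a median of 0.22 (0.10 with the length trend removed, 0.13 without perseverer replicate 2). None had an unadjusted p under 0.05, against 3.08% of all genes on the higher side and 1.36% on the lower. In 3 members (12.5%, against 5.68% of all genes) every perseverer lay above every renouncer, and in 0 below. Cacna1i, a T-type calcium channel, stood at 9.97, 10.1 and 21.7 CPM against 9.53, 8.18 and 7.16, so that the difference of 0.75 ± 0.35 rested mainly on perseverer replicate 3 (0.28 without it). Potassium and HCN channels had 26 of 37 positive and a median of 0.12, against 20 of 37 and 0.04 with the length trend removed, and the median was 0.23 without perseverer replicate 3. Hcn2, a channel of the hyperpolarisation-activated current, was at 0.63 ± 0.29 with overlap (0.24 without perseverer replicate 3), and the low Hcn4 stood at 0.814, 1.52 and 1.14 CPM against 2.12, 3.18 and 2.60 (-1.18 ± 0.57), below in every perseverer.

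**Figure D4:**
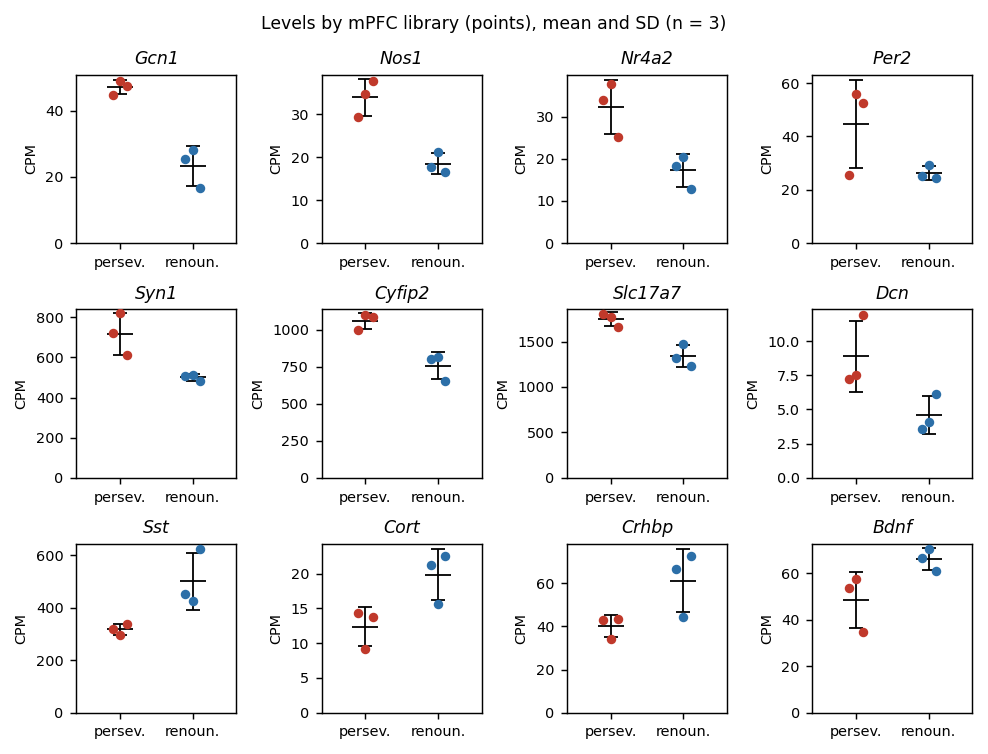
CPM of 12 genes in each mPFC library (points), with the mean and SD of the 3 perseverer (left) and 3 renouncer (right) libraries; each axis starts at 0. The groups do not overlap except in Per2, where perseverer replicate 1 lies among the renouncers, and the last 4 panels (Sst, Cort, Crhbp and Bdnf) show lower perseverers.

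Excitatory neuron markers as a whole had 9 of 12 members positive with a median of 0.14, which was 0.00 without perseverer replicate 2 and 0.09 with the length trend removed. Besides Slc17a7, Tbr1, a transcription factor of deep-layer and early-born pyramidal cells, had separate groups, at 129.6, 101 and 123 CPM against 95.2, 68.7 and 92.9 (0.46 ± 0.19). Cux2, of upper layers, stood at 48.6, 75.04 and 103.8 CPM against 48.3, 52.1 and 30.7, at 0.80 ± 0.29, with perseverer replicate 1 level with the renouncers. Upper-layer markers were 6 positive and 6 negative, and deep-layer markers 11 of 17 positive (9 with the length trend removed) with no member without overlap.

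Genes induced by neuronal activity were not on one side. Of 24 immediate early genes 14 were positive, with a median of 0.02 (11 and -0.02 with the length trend removed). Fos stood at 47.8, 74.2 and 60.7 CPM in perseverers and 70.0, 81.2 and 44.9 in renouncers, with full overlap (-0.10 ± 0.24), and Arc, a regulator of AMPA receptor uptake, at 616, 527 and 1091 CPM against 771, 595 and 478, also with overlap (0.28 ± 0.28). Nr4a2, an orphan nuclear receptor induced by activity and known from dopamine neurons, was the member that stood out, at 33.97, 37.6 and 25.1 CPM against 18.3, 20.5 and 12.8. Each perseverer exceeded each renouncer, at 0.90 ± 0.25 (0.73 to 1.06 with 1 library left out, 0.87 with the length trend removed). Its relative Nr4a3 stood at 27.7, 22.8 and 22.1 CPM against 18.8, 21.0 and 13.8, also without overlap (0.44 ± 0.23).

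Late activity-induced genes were mostly lower in perseverers, with 20 of 24 negative, a median of -0.18 and -0.22 with the length trend removed. The median was -0.31 without perseverer replicate 2 and -0.06 without renouncer replicate 2. Bdnf, the growth factor of activity-dependent plasticity, stood at 53.7, 57.5 and 34.8 CPM in perseverers and 66.8, 70.4 and 61.2 in renouncers. No values overlapped, perseverer replicate 3 was by far the lowest, and the fold change of -0.44 ± 0.21 was -0.24 without it. Bdnf shares 14.4% of its exon bases with an overlapping gene, and since the libraries keep no strand, reads of the 2 genes cannot be told apart there. Rgs2, which dampens G protein signals, stood at 70.5, 76.3 and 64.5 CPM against 90.1, 93.9 and 87.5, at -0.36 ± 0.16, with tight groups. The list held 3 of 24 members below without overlap (12.5%, against 5.22% of all genes): Bdnf, Rgs2 and Gadd45g.

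Other growth factor genes were on the opposite side from Bdnf. In the list of growth factors and receptors 21 of 26 tested members were positive, with a median of 0.27 (0.12 with the length trend removed), and 6 lay above without overlap (23.1%, against 5.68%): Egfr, Igf1r, Gfra2, Fgfr1, Erbb2 and Nrg1. Igf1r, the receptor for insulin-like growth factor, stood at 19.1, 19.7 and 20.7 CPM in perseverers against 12.3, 14.5 and 14.2, with very little spread in either group (0.54 ± 0.21). Gfra2, the receptor for neurturin, stood at 103.9, 91.8 and 123.7 CPM against 74.1, 80.8 and 72.9 (0.49 ± 0.17). Among axon guidance genes 29 of 37 were positive with a median of 0.16 (0.06 with the length trend removed), led by Plxna1, a semaphorin receptor, at 78.3, 80.5 and 90.2 CPM against 53.5, 65.0 and 38.1 (0.67 ± 0.21). Plxna1 shares 10.7% of its exon bases with an overlapping gene.

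The dopamine list had 8 of 14 tested members positive and a median of 0.02 (6 and -0.04 with the length trend removed). Drd1, the main D1-type receptor of cortex, stood at 15.1, 14.8 and 14.3 CPM in perseverers and 15.2, 17.8 and 13.4 in renouncers, with full overlap (-0.07 ± 0.23), and Drd2 was below the filter. Th, tyrosine hydroxylase, was low and variable at 7.59, 2.02 and 14.8 CPM against 2.85, 2.14 and 6.37, with perseverer replicate 3 highest. Dagla, the enzyme that makes the endocannabinoid 2-arachidonoylglycerol, stood at 42.4, 45.3 and 48.1 CPM against 26.8, 33.7 and 32.2, with the groups clearly apart (0.55 ± 0.18).

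Clock genes had 16 of 22 tested members positive and a median of 0.16 (0.06 without renouncer replicate 3, 0.10 with the length trend removed). Per2, a core repressor, stood at 25.5, 56.0 and 52.5 CPM in perseverers and 25.2, 29.3 and 24.4 in renouncers: perseverer replicates 2 and 3 were well above the other 4 libraries and replicate 1 was among the renouncers (0.76 ± 0.28). Cry2, its partner, stood at 299, 324 and 274 CPM against 239.9, 252 and 197, without overlap (0.38 ± 0.17). Npas2, Nr1d1 and Hlf also lay above without overlap and Nr1d2 below. Of the 22 members, 4 thus lay above (18.2%, against 5.68% of all genes) and 1 below (4.55%, against 5.22%). The labels used here give no time of day of collection.

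Of the stress-related lists, only the integrated stress response had members without overlap on both sides. Glucocorticoid-responsive genes had 1, on the lower side (5.26%, against 5.22% of all genes). Heat shock proteins and chaperones had 0, with 17 of 23 members negative. Nfkbia, an inhibitor of NF-kappaB that glucocorticoids induce, stood at 30.8, 23.3 and 20.9 CPM in perseverers against 35.6, 43.4 and 38.2 in renouncers, without overlap (-0.64 ± 0.21), in a list with 13 of 19 members negative and a median of -0.13 (-0.03 without perseverer replicate 2, -0.14 with the length trend removed). Atf4, the transcription factor translated when GCN2 and related kinases are active, stood at 97.2, 78.7 and 90.6 CPM against 148, 105 and 113, also without overlap (-0.46 ± 0.18). Its list, the integrated stress response, had 11 positive and 11 negative members (14 and 8 with the length trend removed). Atf4, Ppp1r15a and Eif2s1 lay below without overlap (13.6% of 22, against 5.22% of all genes), and Gcn1 and Chac1 above (9.09%, against 5.68%). Among 27 chromatin regulators 18 were positive, with a median of 0.16 that was 0.02 with the length trend removed and 0.07 without renouncer replicate 3. Crebbp, the CREB-binding acetyltransferase, stood at 46.9, 50.7 and 59.8 CPM against 38.1, 33.7 and 39.3 (0.50 ± 0.18).

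Short genes of energy and protein synthesis lay slightly lower. Of 67 nuclear genes of oxidative phosphorylation 63 were negative, with a median of -0.16. None had groups separate on the lower side (against 5.22% of all genes), and 1 did on the higher side (Sdha, 1.49%, against 5.68%). With the length trend removed, the median was 0.02 with 36 positive, and without renouncer replicate 3 it was also 0.02. Without perseverer replicate 3 it was -0.41. Cytosolic ribosomal protein genes had 57 of 77 members negative and a median of -0.11, which was 0.08 with the length trend removed, 0.12 without renouncer replicate 3 and -0.44 without perseverer replicate 3. The median length of these lists was 772 and 740 bases.

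Among markers of other cells in the dissection, the meningeal and myelin lists moved with single libraries. Meningeal fibroblast genes had 12 of 14 members positive and a median of 0.46, but the mean log2 level of the list was 2.16, 2.93 and 3.54 in the perseverers and overlapped the 2.47, 2.39 and 2.98 of the renouncers. Without perseverer replicate 3 the median was -0.12. Dcn, the proteoglycan decorin, was the 1 member without overlap (7.14%, against 5.68% of all genes), at 7.25, 7.51 and 11.9 CPM against 3.58, 4.05 and 6.13 (0.96 ± 0.36). Myelin genes had 12 of 14 members negative and a median of -0.25, with list levels of 6.50, 5.54 and 6.15 in perseverers and 6.04, 5.67 and 7.01 in renouncers. Without renouncer replicate 3, which held the most myelin RNA, the median was 0.28. Markers of neuroblasts and olfactory bulb were positive in 8 of 13 tested members. Their median of 0.17 kept its sign in all 15 alternatives (0.05 to 0.28). Dcx, Dlx2 and Sp8 lay above without overlap (23.1%, against 5.68% of all genes), all at low levels. Astrocyte markers had a median of -0.01, whose sign differed in 5 of 15 alternatives. Microglia markers had one of -0.07 (-0.20 to -0.01 over the alternatives) and endothelial markers of -0.06 (-0.35 to -0.01). The part of these cells in the results above was not tested.

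**Figure D5:**
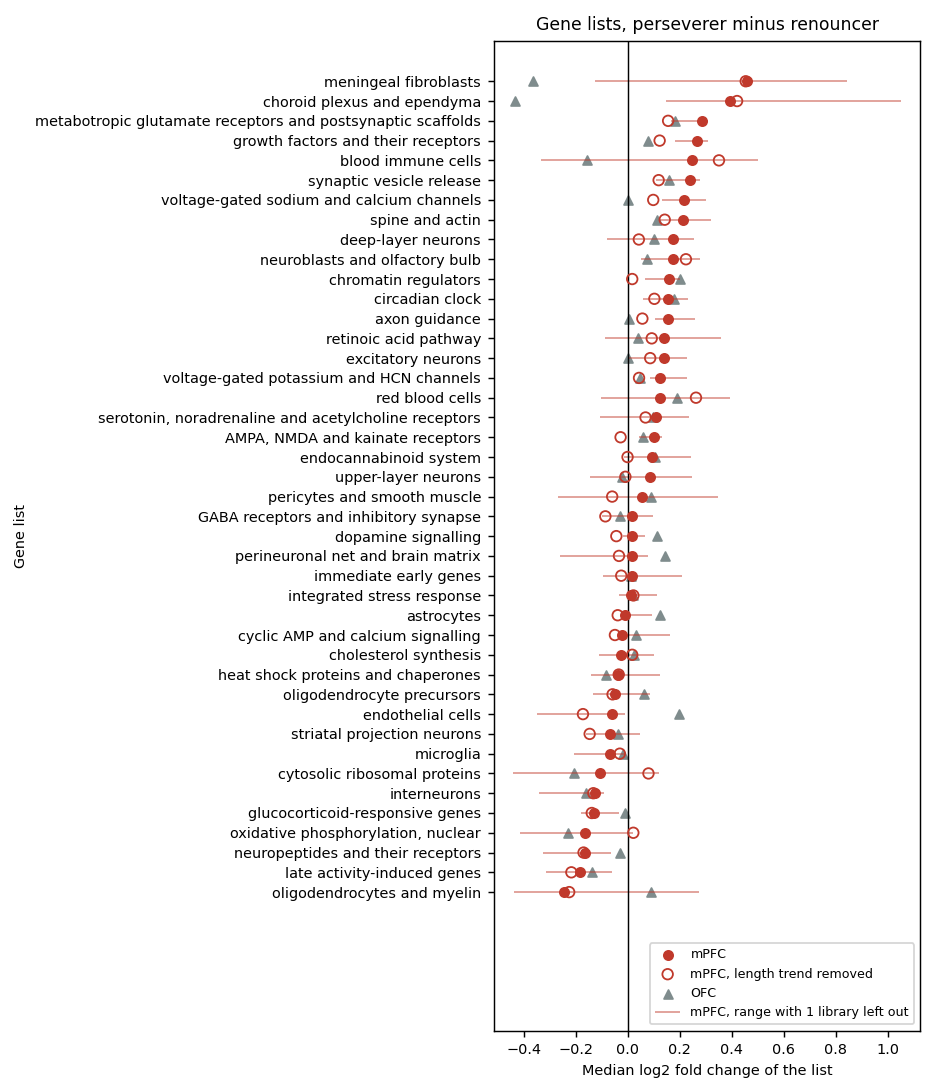
Median log2 fold change (perseverer minus renouncer) of each gene list in the mPFC (filled points, line: range with 1 library left out), in the mPFC with the length trend removed (open points) and in the OFC (triangles). Synaptic vesicle, scaffold, spine, channel and growth factor lists lie above 0 with ranges that do not cross it, neuropeptide, interneuron, late activity and glucocorticoid lists below, and the meningeal and myelin ranges cross 0.

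The OFC dissections were set beside the mPFC to see where the values differ by area. In the OFC 0 of 14621 genes passed (0%, edgeR, 377 at an unadjusted p under 0.05, with 0 by DESeq2 and 420 unadjusted, and 0 by limma and 950 unadjusted). The test of the difference between areas called 0 of 15025 genes (0%, edgeR, 225 at an unadjusted p under 0.05, with 0 by DESeq2 and 287 unadjusted, and 0 by limma and 659 unadjusted). Whether both areas came from the same mice is not stated. Nothing can therefore be called particular to the mPFC. Of all genes measured in both areas, 67.9% had the same sign. Of the 10 leading higher genes 7 had the same sign in the OFC, and of the 10 lower genes all 10.

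Gcn1 had the smallest p in the test between areas. In the OFC it stood at 26.6 ± 1.90 CPM in perseverers and 31.6 ± 3.43 in renouncers (SD, n = 3 each), at -0.25 ± 0.16, with every perseverer below every renouncer. The fold changes of the 2 areas differed by 1.25 ± 0.26 (SE), which did not pass with edgeR (adjusted p = 0.99999) and had an adjusted p of 0.0992 with DESeq2. Egfr (-0.25 ± 0.20) and Rrp12 (-0.19 ± 0.16) were the other leading higher genes with a negative value in the OFC. Sst was at -0.22 ± 0.15 there, Crhbp at -0.10 ± 0.17, Vip at -0.35 ± 0.16 and Bdnf at 0.01 ± 0.22. Syn1 was at 0.30 ± 0.17, Cyfip2 at 0.25 ± 0.16 and Nr4a2 at 0.61 ± 0.30. The OFC groups were also separate, on the same side as in the mPFC, for Sst, Kat8, Uba3, Hars2 and Syn1. They overlapped for Crhbp, Bdnf, Cyfip2, Nr4a2 and, apart from Gcn1, the remaining leading genes. Meningeal genes had the opposite sign in the OFC, with 1 of 14 positive and a median of -0.36. Myelin genes did too (11 of 14 positive, 0.09). Several other lists had the same sign in both areas. In the OFC, interneuron markers had 15 of 20 negative (median -0.16) and late activity-induced genes 19 of 24 (-0.14). Vesicle release had 29 of 36 positive (0.16), clock genes 17 of 22 (0.18) and chromatin regulators 20 of 27 (0.20). Nuclear genes of oxidative phosphorylation had 62 of 67 negative (-0.23). Sodium and calcium channels had 12 of 23 positive (0.00).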

How the data were processed

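Per the labels' protocols, Qiagen columns served for RNA extraction from the 6 mPFC dissections, and SMART-Seq v4 with Nextera, which keeps no strand, for library making. The deposited table holds raw counts per gene, as whole numbers, for 25239 genes. Build mm10 and FastQC 0.11.8 are named in the submitters' processing notes. Aligner, counter and annotation: not given in the sources used here.

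Groups came from the labels. The counts entered edgeR 4.0.16 in R 4.3.3, with filterByExpr, TMM scaling, a robust two-sided quasi-likelihood test and Benjamini-Hochberg adjustment over all genes kept, with an adjusted p of 0.05 as threshold. The SE, the absolute log2 fold change over the root of the F statistic, is approximate. CPM are after TMM scaling, and list levels are means of log2(CPM + 1). The difference between areas was a contrast of the 4 groups of dissections. Library measures used exact permutation in scipy 1.17.1. The script was tested on simulated data. With 12392731 to 17895184 counts in a library, genes near 1 CPM are imprecise.

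Of the identifiers, 99.6% matched RefSeq GRCm38.p6, which gave positions and promoters. Exon overlaps came from GENCODE vM21. The text names the 10 genes per side with the smallest p and a mean of at least 1 CPM, up to 3 members of each of 43 lists, and reference genes. Genes without an ordinary name are counted, not named, and a few genes that the rule takes are not reported here. Other list members named, and the nuclear RNAs of the closing section, were chosen after their values were seen. The members and lists were chosen with earlier results of these data known. Alternatives were DESeq2 1.42.0, limma 3.58.1 (weighted voom), scaling by RLE or the upper quartile, other filters, a threshold of 0.1, the replicate number as a block, a fit of 12 dissections and leaving out each library. Removing each library's length trend (a loess fit per library) was chosen after seeing the data.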

Additional observations from a re-analysis of the deposited data

How the results depend on the processing

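No fit of any of the 3 comparisons called a gene at an adjusted p of 0.05, with any tool, scaling, filter or left-out library. The number of mPFC genes at an unadjusted p under 0.05, 639, was 2151 with limma, 1148 in the fit of the 12 dissections and 370 (without renouncer replicate 3) to 1849 (without perseverer replicate 3) with 1 library left out. Of the 639, 69.3% lay higher in perseverers. The share on the higher side was 46.8% with limma, 49.1% with the length trend removed and 46.2% without perseverer replicate 3. With any other single library left out it was 60.8% to 78.4%. Same-numbered libraries of the 2 groups deviated together with low correlations of 0.05, 0.13 and 0.12. Within the other group, 6 of 6 libraries correlated best with their own number. Whether a replicate number marks a shared batch or animal is not stated in the labels and cannot be decided from these values. With the replicate number as a block, 1023 genes had an unadjusted p under 0.05 and 0 passed.

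Of 120 genes taken by the naming rule and checked, 8 changed sign in some of the 15 alternatives, and the cause was not tested. The others, among them the 20 leading genes, kept their direction in all 15. For the leading genes their choice by small p makes this likely. With 1 library left out, the log2 fold change ranged from -0.81 to 0.0569 for Opalin, from -0.0939 to 1.72 for Acta2, from -0.41 to 0.64 for H2-Aa, from -0.19 to 0.49 for H2-Ab1, from -0.16 to 0.0479 for Drd1, from -0.17 to 0.37 for Gad1, from -0.31 to 0.0843 for Fos and from -0.10 to 0.47 for Arc. Gad1 was at -0.0235 with the block and -0.0289 with the length trend removed, and limma gave -0.0329 for H2-Aa and -0.0608 for Arc. Of the 43 lists 18 kept the sign of their median throughout. At 3 libraries a group, the fold changes of single genes carry SEs of about the size of the smaller differences described.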

Other observations

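Several long noncoding RNAs had negative fold changes in the mPFC, with large differences between libraries of a group. Meg3, an imprinted RNA of neurons, stood at 12.2, 9.53 and 34.3 CPM in perseverers and 78.4, 18.2 and 78.3 in renouncers, at -1.64 ± 0.56. Renouncer replicates 1 and 3 were high, and renouncer replicate 2 was below perseverer replicate 3, so the groups overlapped. Snhg11, a neuronal host RNA of small nucleolar RNAs, followed the same order of libraries on the renouncer side at 21.2, 14.8 and 43.7 CPM against 89.5, 25.7 and 81.9 (-1.30 ± 0.47). Malat1, an abundant RNA of nuclear speckles, stood at 146, 136 and 403 CPM against 311, 168 and 830.0 (-0.93 ± 0.55), with its highest level in renouncer replicate 3. Neat1, a low-level RNA of paraspeckles, was at -1.67 ± 0.86, Miat at -1.50 ± 0.56, Kcnq1ot1 at -0.64 ± 0.77 and Rian at -0.05 ± 0.29, each with overlapping groups. Miat shares 30.4% of its exon bases with overlapping genes, which makes its value uncertain. In the OFC dissections Meg3 was at 0.07 ± 0.37 and Snhg11 at 0.03 ± 0.39. These RNAs were chosen after their values were seen.

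Other groups held a few genes with separate libraries. Srebf2, the master regulator of cholesterol synthesis, stood at 309, 254 and 353 CPM in perseverers and 242, 212 and 187 in renouncers (0.51 ± 0.18), while the list of cholesterol synthesis genes had 11 of 20 members negative and a median of -0.02 whose sign differed in 6 of 15 alternatives. Ncan, the matrix proteoglycan neurocan, stood at 193, 213 and 213 CPM against 173, 153 and 124.6 (0.46 ± 0.17). Chrnb2, a subunit of the main nicotinic receptor of brain, stood at 19.9, 19.5 and 17.99 CPM against 15.3, 13.8 and 13.1, with small spreads (0.44 ± 0.21). Chrnb2 shares 16.3% of its exon bases with Adar, and reads there cannot be told apart without strand. Foxp1, a transcription factor of cortical and striatal projection neurons, stood at 66.4, 57.2 and 59.4 CPM against 36.2, 44.6 and 52.2 (0.46 ± 0.19). All 4 had every perseverer above every renouncer, and none passed the threshold.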
